A study of Tupaia belangeri with 6 samples.

Results

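Metabotropic glutamate receptors are the G protein-coupled receptors of glutamate, the main excitatory transmitter of the cortex. Of the 7 genes GRM2, GRM3, GRM4, GRM5, GRM6, GRM7 and GRM8, 6 had a row in the prefrontal cortex tables of the tree shrew (Tupaia belangeri), out of 95863 loci. They were found by an exact match of the gene name, and rows of 1 gene ID on 1 chromosome or contig were summed. No locus named GRM2 was among those analysed here. All 6 genes with a row passed the filter on low values, at least 0.1 TPM (transcript abundance scaled to the library) in 3 or more libraries.

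The study examined DNA methylation, gene expression and X chromosome inactivation in the tree shrew brain, and the comparison its expression libraries allow is that of the sexes. Prefrontal cortex was taken from 3 adult females, numbered 1, 3 and 4, and 3 adult males, numbered 1, 4 and 5, with no treatment and no altered allele, and each animal gave 1 library. The sample list of the study gives every male a greater age than every female, so age and sex cannot be told apart. TPM is a share of the library corrected for transcript length, which puts genes on a common scale, though the order of some receptors changed with read depth as the measure, as given below. TPM keeps no sequencing depth and no counting error could be given.

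The receptors of this family bind glutamate in a large extracellular domain and work as dimers. Group I, here GRM5, couples to Gq and phospholipase C and lies mostly on postsynaptic membranes. Group II, GRM2 and GRM3, and group III, GRM4, GRM6, GRM7 and GRM8, couple to Gi/o proteins and lower the activity of adenylyl cyclase. GRM3 is also made by astrocytes, GRM7 sits in the active zone of presynaptic terminals, and GRM6 is known as the receptor of retinal ON bipolar cells. GRM4 is known from cerebellar granule cells and from the terminals of striatal projection neurons.

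The tissue label was checked against marker genes. Of 3 neuronal markers with a row, the summed level was between 4520 and 6640 TPM in the 6 libraries, and that of 4 astrocyte markers between 307.1 and 489.2 TPM. The summed level of 3 oligodendrocyte markers was between 347.6 and 481.6 TPM in the females and between 80.7 and 235.6 TPM in the males, without overlap. Of 4 striatal projection neuron markers with a row, RGS9 was at 48.0, 43.7 and 54.6 TPM in female 1, female 3 and male 1. RGS9 was at most 1.52 TPM in the other 3, so the 6 libraries were not alike in this respect. TAC1 and PENK were also highest in female 1, female 3 and male 1. PENK was at 98.9 TPM or more in every library. DRD1 did not follow this order, with 4.02 TPM in male 1 and 4.83 TPM in male 4. Correlations of log2(TPM + 1) between libraries ran from 0.858 to 0.957. In bulk tissue, fewer cells of a type and less RNA per cell cannot be told apart, and this holds for every level below.

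The 6 receptors together made up 146.2, 176.9 and 110.5 TPM in females 1, 3 and 4, and 140.2, 139.8 and 186.8 TPM in males 1, 4 and 5, with a mean of 150.1 ± 27.8 TPM (SD, n = 6). The lowest total was that of female 4 and the highest that of male 5. GRM3 took between 33.8% and 43.0% of this total and GRM5 between 20.6% and 28.9%. The 4 group III receptors together took between 31.8% and 42.2%. These shares are of TPM, and by read depth, described below, GRM3 took 56.6% to 69.7%, GRM5 15.4% to 20.6% and group III 12.2% to 24.5%. In TPM, group II and group III were each above GRM5 in all 6 libraries.

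**Figure D1:**
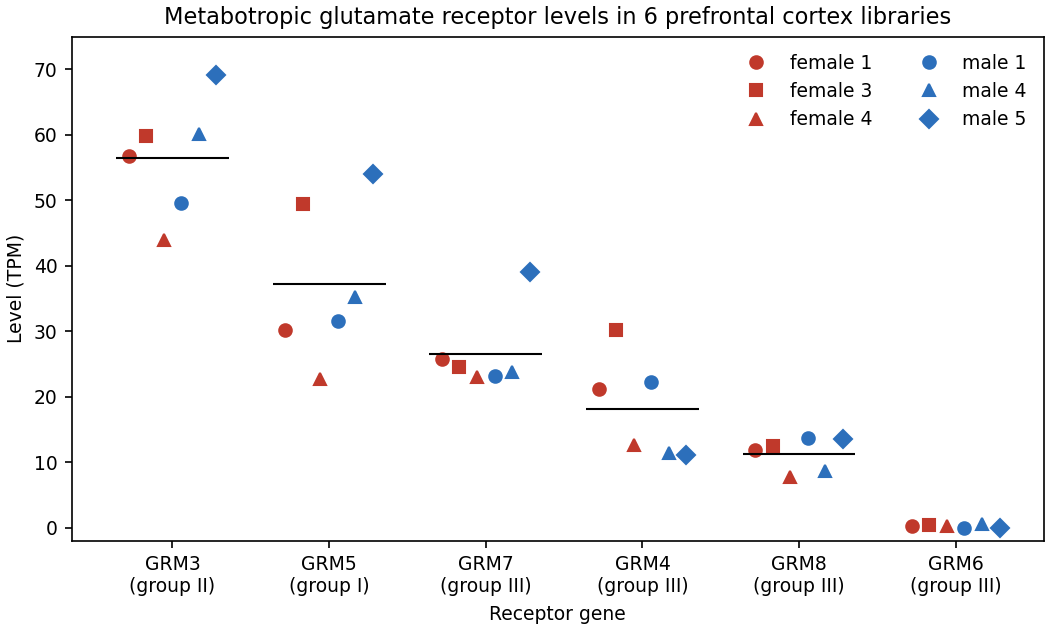
TPM of GRM3, GRM5, GRM7, GRM4, GRM8 and GRM6 in each library (points, females and males in separate colours), with the mean of 6 libraries as a black line except for GRM6, which is listed at 0 in 2 libraries. GRM3 has the highest mean (56.6 TPM) and GRM6 stays under 1 TPM.

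GRM5, the group I receptor, lies on chromosome 9, + strand, 46630405 to 47125510 (build TS_3.0), a locus of 495106 bp. Its level was 30.2, 49.4 and 22.7 TPM in females 1, 3 and 4, against 31.5, 35.3 and 54.0 TPM in males 1, 4 and 5, with a mean of 37.2 ± 12.05 TPM (SD, n = 6). Female 4 was lowest and male 5 highest, 2.38 times apart, and the sexes overlapped. Over the 6 libraries, the SD of its log2(TPM + 1) was 0.45, against a median of 0.48 for the 27996 autosomal genes tested.

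GRM3, the group II receptor with a row, lies on chromosome 5, + strand, 91533171 to 91802336, over 269166 bp. Its levels were 56.8, 59.8 and 44.0 TPM in females 1, 3 and 4 and 49.5, 60.1 and 69.1 TPM in males 1, 4 and 5, a mean of 56.6 ± 8.82 TPM (SD, n = 6). The libraries lay within 1.57 times of each other, and the females and males overlapped. Its log2 SD of 0.23 was the smallest of the 6 receptors.

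GRM7, a group III receptor of low affinity for glutamate, covers 1020247 bp of chromosome 23, + strand, 11706888 to 12727134. Females 1, 3 and 4 had 25.8, 24.5 and 23.1 TPM, and males 1, 4 and 5 had 23.2, 23.8 and 39.1 TPM, a mean of 26.6 ± 6.22 TPM (SD, n = 6). Male 5 stood above the other 5 libraries, which lay between 23.1 and 25.8 TPM.

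GRM4 lies on the unplaced contig contig1880_1, - strand, 8256 to 130810, over 122555 bp. Its levels were 21.2, 30.1 and 12.7 TPM in females 1, 3 and 4 and 22.2, 11.4 and 11.1 TPM in males 1, 4 and 5, a mean of 18.1 ± 7.67 TPM (SD, n = 6). Females 1 and 3 and male 1 were at 21.2 TPM or more, and the other 3 libraries at 12.7 TPM or less. GRM4 had the largest log2 SD of the 6 receptors, 0.57, against a median of 0.56 for the 1498 contig genes tested.

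GRM8 lies on chromosome 5, + strand, 58604441 to 59439157, over 834717 bp. Females 1, 3 and 4 had 11.9, 12.5 and 7.70 TPM, and males 1, 4 and 5 had 13.7, 8.62 and 13.5 TPM, a mean of 11.3 ± 2.56 TPM (SD, n = 6). As for GRM5, GRM3 and GRM7, the lowest library was female 4.

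GRM6 lies on chromosome 18, - strand, 60802748 to 60816306, and its span of 13559 bp is the shortest of the family. It was listed at 0.334, 0.485 and 0.333 TPM in females 1, 3 and 4, at 0.554 TPM in male 4, and at 0 in males 1 and 5. In the 4 libraries with a value above 0, its level was the lowest of the family. Without counts the listed 0 in males 1 and 5 may be a failed estimate.

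The order of mean TPM was GRM3, GRM5, GRM7, GRM4, GRM8 and GRM6. Neighbours in this order were compared within each library by an exact two-sided sign-flip permutation test on log2(TPM + 1), for which 6 libraries allow a smallest p of 0.03125. GRM3 was above GRM5 in 6 of 6 libraries, by 0.64 ± 0.27 (SD, n = 6; exact p = 0.03125, Benjamini-Hochberg adjusted p = 0.0781 over 5 pairs). GRM8 was above GRM6 in 6 of 6 libraries, by 3.26 ± 0.54 with the 2 libraries at 0 included (exact p = 0.03125, adjusted p = 0.0781). This p takes the GRM6 values of 0 in those 2 libraries as measured, though they may be failed estimates. These 2 differences reached the smallest p the design allows, and neither passed 0.05 after adjustment.

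The 3 middle steps were smaller against their spread. GRM5 exceeded GRM7 in 5 of 6 libraries, by 0.43 ± 0.34 (SD, n = 6; exact p = 0.0625, adjusted p = 0.0781). GRM7 exceeded GRM4 in 5 of 6 libraries, by 0.60 ± 0.73 (exact p = 0.125, adjusted p = 0.125). GRM4 exceeded GRM8 in 5 of 6 libraries, by 0.57 ± 0.49 (exact p = 0.0625, adjusted p = 0.0781). None of these 3 steps was set beyond the spread between libraries. Further apart in the order, the lowest libraries of GRM5 (22.7 TPM) and GRM7 (23.1 TPM) lay above the highest of GRM8 (13.7 TPM).

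**Figure D2:**
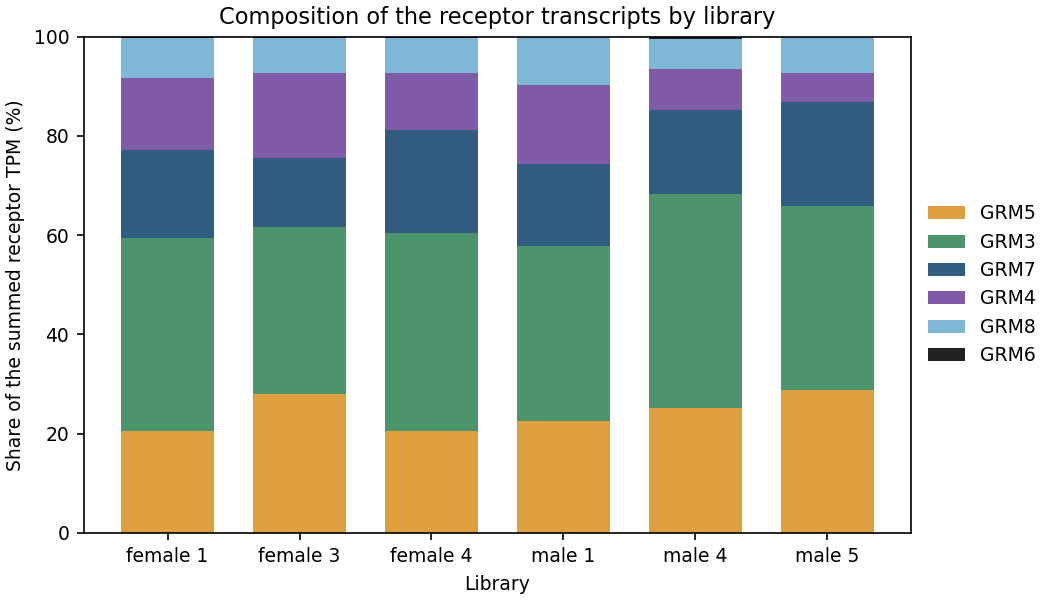
Share of the summed TPM of the 6 receptors (percent) taken by each receptor in each library, females 1, 3 and 4 and males 1, 4 and 5. GRM3 takes 33.8% to 43.0% in every library, whereas the share of GRM4 runs from 5.95% in male 5 to 17.0% in female 3. By read depth, which is not drawn, GRM3 takes 56.6% to 69.7% and GRM4 8.61% to 20.6%.

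The tables also give the mean read depth over a locus, and this measure placed the receptors differently. Depth was divided by the depth that 1 TPM stood for in loci without strand, so that both measures share a unit. On this scale GRM3 had a mean of 55.4 ± 8.65, close to its TPM, with a ratio to TPM between 0.978 and 0.981 in the 6 libraries. GRM7 had a mean of 1.38 ± 0.300, with a ratio between 0.0480 and 0.0571. Among 11279 named loci with a mean of at least 1 TPM, the median ratio was 0.668, and 2.33% had a ratio below that of GRM7.

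For GRM8 the ratio was between 0.121 and 0.168, and 10.9% of the named loci were lower. GRM5 fell between 0.377 and 0.460 and GRM4 between 0.697 and 0.792, against which 32.3% and 59.9% of the named loci were lower. By depth, GRM5 with 15.5 ± 4.03 and GRM4 with 13.8 ± 5.20 followed GRM3, and GRM8 with 1.73 ± 0.376 and GRM7 with 1.38 ± 0.300 came after them. Among neighbours in the order by depth, GRM5 was above GRM4 in 3 of 6 libraries (exact sign-flip p = 0.5, adjusted p = 0.5) and GRM8 above GRM7 in 5 of 6 (exact p = 0.156, adjusted p = 0.195). The other 3 neighbouring pairs kept their order in 6 of 6 libraries (exact p = 0.03125, adjusted p = 0.0521 each), GRM7 over GRM6 with the GRM6 values of 0 included. GRM4 was above GRM7 by depth in 6 of 6 libraries, whereas by TPM it was below in 5 of 6. The group III sum by depth was above GRM5 in 4 libraries and below it in male 4 (12.3 against 13.3) and male 5 (12.2 against 20.7). The levels of GRM7 and GRM8 relative to the others, and of group III relative to GRM5 and to GRM3, therefore depended on the measure, and GRM3 had the highest mean by both. By depth GRM3 was 2.34 to 5.53 times the group III sum in the 6 libraries.

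**Figure D3:**
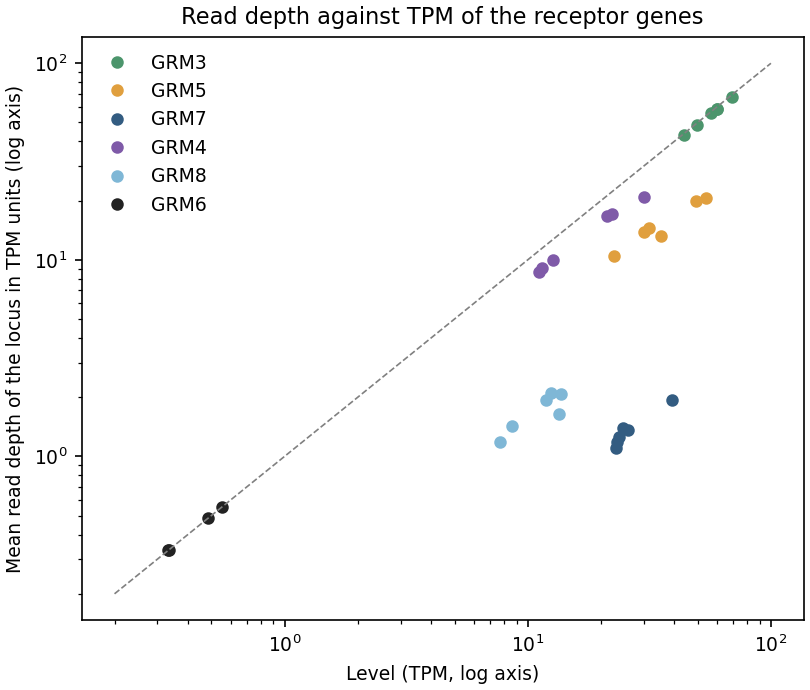
Mean read depth of each receptor, expressed in TPM units, against its TPM on logarithmic axes, 1 point per library, without the 2 libraries that list GRM6 at 0. GRM3 and GRM6 lie at the line of equality, and GRM7 and GRM8 lie farthest below it, with ratios of 0.0480 to 0.0571 and 0.121 to 0.168.

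Other loci lie within the spans of these genes, and the sources used here do not say that the libraries kept strand, so reads of overlapping loci may not be told apart. Within GRM7 there were 16 loci without strand, of a median span of 302.5 bp, with summed levels of 0.331, 0.303 and 3.89 TPM in females 1, 3 and 4 and 76.5, 1.86 and 2.37 TPM in males 1, 4 and 5. In male 1, 15 of these 16 loci were above 0, and in each other library at most 4 were. In male 1 the summed level of these small loci exceeded that of GRM7 itself, 23.2 TPM. A further 10 loci on the opposite strand overlapped GRM7, with sums between 2.77 and 12.8 TPM.

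GRM8 held 4 loci without strand, with sums between 9.51 and 17.8 TPM, beside 7.70 to 13.7 TPM for the gene itself. GRM6 held 2 loci without strand, which were at 0 except for 18.4 TPM in male 5, a library in which GRM6 was listed at 0. GRM3 overlapped KIAA1324L on the opposite strand by 1047 bp at its 3′ end, and KIAA1324L was at 11.9 to 20.1 TPM. The 4 opposite-strand loci of GRM5 summed to at most 2.15 TPM and the 3 of GRM4 to at most 2.96 TPM. The part of these overlaps in the receptor levels was not tested.

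GRM2, the other group II receptor, is a presynaptic autoreceptor of cortical neurons. All 7 receptors have an entry in the RefSeq annotation of another tree shrew assembly, TupChi_1.0, where GRM2 lies between IQCF6 and TEX264. In the tables, on chromosome 23, TEX264 (25499333 to 25669430, + strand) and IQCF6 (25677899 to 25682245) are neighbours, with 8468 bases and 0 loci between them. TEX264, a receptor for selective autophagy of the endoplasmic reticulum, spans 170098 bp and overlaps DCAF1 (25427153 to 25509031). TEX264 was at 68.0, 109.1 and 76.6 TPM in females 1, 3 and 4 and at 58.8, 162.5 and 125.0 TPM in males 1, 4 and 5, while IQCF6 was at 0 throughout. Whether the level of TEX264 includes transcripts of GRM2 was not tested.

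The question of a sex difference was put to each receptor with limma on log2(TPM + 1), fitted over all genes tested, where a gene is called at a Benjamini-Hochberg adjusted p under 0.1. Of the 6 receptors, 0 were called and 0 had an unadjusted p under 0.05. Over all autosomal genes tested, 0.0143% were called and 5.02% had an unadjusted p under 0.05. Over the contig genes, among them GRM4, these shares were 0% and 6.01%. The paper's test on counts called a far larger share of autosomal genes at the same adjusted threshold. The low share here is that of limma on TPM and does not measure how many genes differ between the sexes. In 0 of 6 receptors did every female lie above every male or the reverse, which was the case for 4.84% and 4.97% of the autosomal genes and for 6.94% and 3.87% of the contig genes. The values of the sexes thus overlapped for each receptor. The summed oligodendrocyte markers, which did not overlap between the sexes, were carried mostly by MAG, with at least 246.6 TPM in each female and at most 145.6 TPM in each male, while MOG and MBP overlapped. Their part in the receptor differences was not tested.

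GRM4 differed by 0.48, female minus male, on the log2(TPM + 1) scale (SE 0.37, 95% interval -0.37 to 1.33, limma adjusted p = 0.830). The females had 21.4 ± 8.71 TPM and the males 14.9 ± 6.34 TPM (SD, n = 3 each). Without female 4 or without male 1 the difference was 0.79, without female 3 it was 0.20 and without male 5 it was 0.32, so each of these libraries moved it by more than 1.5 times.

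GRM5 differed by -0.27 (SE 0.31, 95% interval -0.99 to 0.45, limma adjusted p = 0.942), with 34.1 ± 13.8 TPM in females and 40.3 ± 12.02 TPM in males. For GRM3 the difference was -0.15 (SE 0.20, interval -0.61 to 0.31, limma adjusted p = 0.952), from 53.5 ± 8.42 and 59.6 ± 9.80 TPM. Its interval was the narrowest of the 6 receptors. Leaving out 1 library moved the GRM5 difference to -0.02 (without female 4), -0.04 (without male 5), -0.42 (without male 1) or -0.56 (without female 3). That of GRM3 moved to -0.02 without female 4, -0.04 without male 5, -0.24 without female 3 and -0.28 without male 1.

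GRM7 differed by -0.18 (SE 0.24, interval -0.73 to 0.37, limma adjusted p = 0.951), and without male 5, the library that stood apart, the difference was 0.05. GRM8 differed by -0.15 (SE 0.31, interval -0.85 to 0.56, limma adjusted p = 0.973), and by 0.05 without female 4, against -0.35 (without male 4) to -0.04 (without male 1) when any other library was left out. For GRM6 it was 0.26 (SE 0.28, interval -0.39 to 0.90, limma adjusted p = 0.942), which rests on the 2 males listed at 0, and it was 0.15 without either of these and 0.47 without male 4. With a pseudocount of 0.1 in place of 1 it was 1.36 (SE 1.11). In GRM7 and GRM8 the sign thus turned with 1 library.

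**Figure D4:**
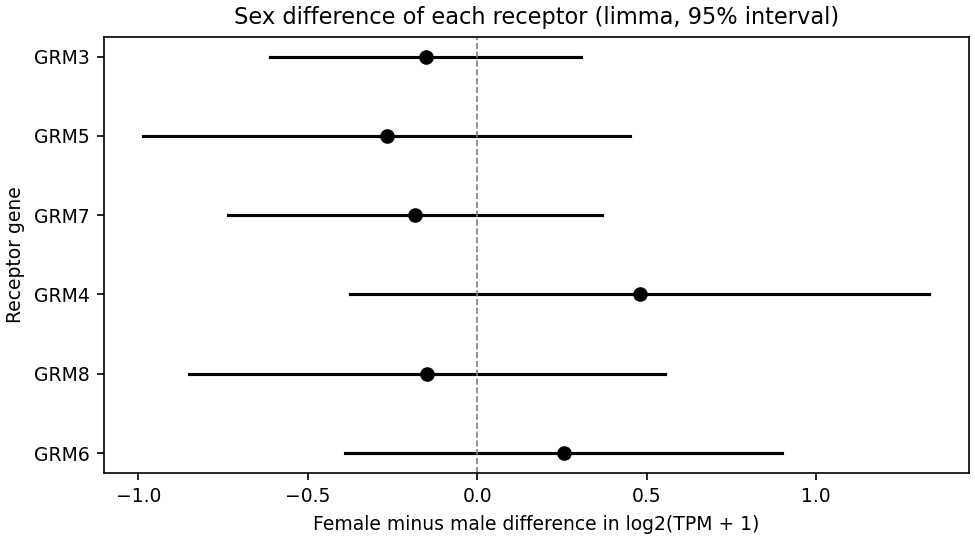
Female minus male difference in log2(TPM + 1) of each receptor (points) with its 95% interval from limma (lines). All 6 intervals include 0, and that of GRM4 is the highest, from -0.37 to 1.33.

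By group, the summed TPM of group III was 56.9 ± 12.1 in females and 55.8 ± 10.1 in males (SD, n = 3 each), a difference of 1.13 (exact permutation p = 0.9). For GRM3 in TPM the difference was -6.08 (exact permutation p = 0.4), and for GRM5 it was -6.17 (exact permutation p = 0.5). With 3 animals against 3 the smallest p is 0.1, so none of these 3 two-sided comparisons could reach 0.05. The group III difference turned to -1.46 with stranded loci only, and to -0.0343, -4.26 and -4.54 without female 1, without female 3 and without male 4. That of GRM5 turned to 0.689 without male 5.

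The levels of GRM4 were set beside markers of striatal projection neurons. Of 7 such markers 4 had a row, and DRD2, ADORA2A and PPP1R1B had none. RGS9, a regulator of G protein signalling known from the striatum, had its high values, given above, in female 1, female 3 and male 1, and was at 1.52 TPM in female 4 and at 0.355 and 0.392 TPM in males 4 and 5. TAC1, the precursor of substance P, was at 89.2, 78.3 and 26.02 TPM in the females and at 231.6, 22.3 and 10.6 TPM in the males. PENK, the enkephalin precursor, ran from 98.9 to 215.5 TPM.

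GRM4, RGS9, TAC1 and PENK were all highest in female 1, female 3 and male 1. DRD1, a dopamine receptor, did not follow this order, with 4.02 TPM in male 1 and 4.83 TPM in male 4. The summed level of the 4 striatal markers was between 112.6 and 505.8 TPM. The part of these markers in the level of GRM4 was not tested.

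**Figure D5:**
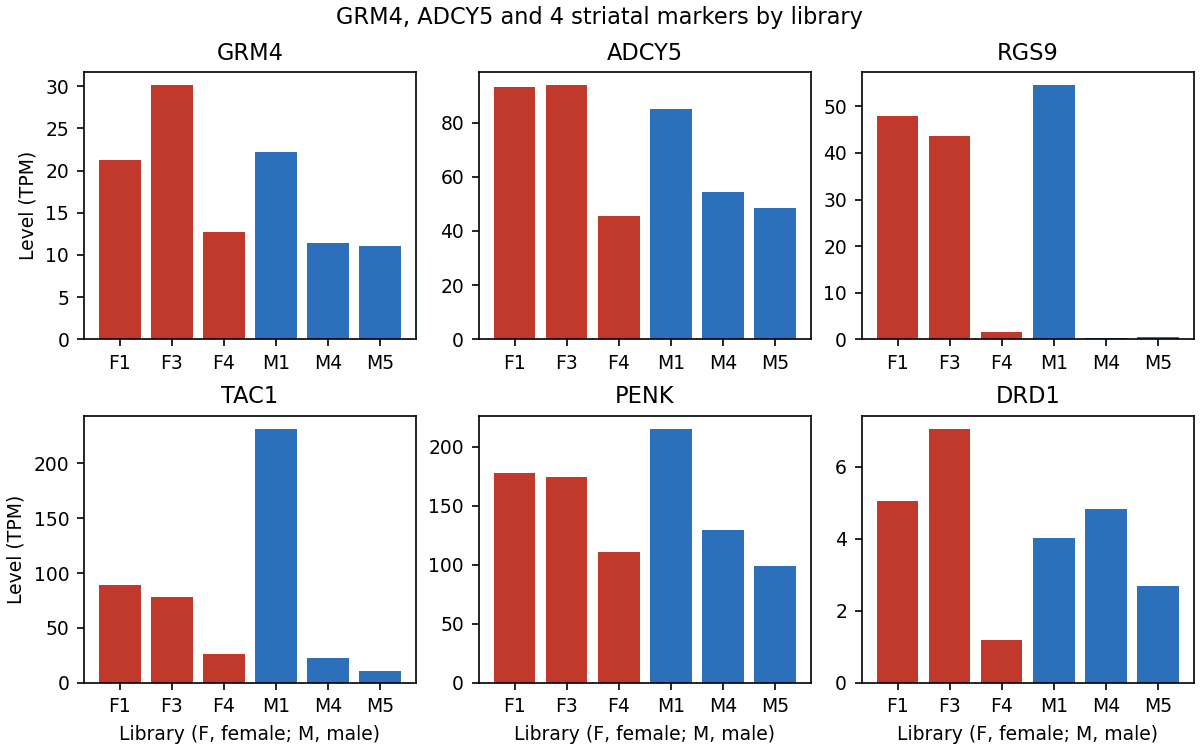
TPM of GRM4 and of RGS9, TAC1, PENK, DRD1 and ADCY5 in each library, females 1, 3 and 4 and males 1, 4 and 5. GRM4 is at 21.2, 30.1 and 22.2 TPM in female 1, female 3 and male 1, the libraries in which RGS9 is above 40 TPM, and at 12.7 TPM or less in the others.

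The genes whose deviations over the 6 libraries were most like those of each receptor were sought among 80 candidates of the lists, by the root-mean-square difference in log2(TPM + 1), as a description over 6 libraries of shared depth and composition. For GRM3 they were GRK3, a receptor kinase, at 0.08, and SLC1A3, the glutamate transporter of astrocytes, at 0.10. For GRM5 they were ITPR1, the inositol trisphosphate receptor, at 0.12, and PRKCA, a protein kinase C, at 0.16. For GRM4 they were ADCY5, an adenylyl cyclase abundant in striatum, at 0.19, and PENK at 0.28.

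Among the others of group III, GRM7 was closest to RGS7, a regulator of Gi/o signalling, at 0.12, and to GRM3 at 0.18. GRM8 was closest to the neuronal glutamate transporter SLC1A1 and the bicarbonate transporter SLC4A4, both at 0.09. GRM6 was closest to KCNJ9, a potassium channel subunit, at 0.09, and to ELFN1 at 0.11, and its own log2 SD over the libraries was 0.28. GRM6 was at 0 in males 1 and 5 and at most 0.554 TPM elsewhere, so its likeness to these genes rests on values near 0.

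The partners of the receptors were taken as 10 lists of 65 genes, of which 49 had a row and 47 were tested. In limma 0 of 47 were called in either direction, with 1 of 47 at an unadjusted p under 0.05, against 0.0143% called and 5.02% under 0.05 of all autosomal genes. The 1 gene, FOLH1, named after its value was seen, encodes the peptidase that splits the GRM3 agonist NAAG. FOLH1 was at 9.58, 12.9 and 6.79 TPM in females 1, 3 and 4 and at 7.53, 2.66 and 2.07 TPM in males 1, 4 and 5. Its difference was 1.19 (SE 0.48, limma unadjusted p = 0.0356, adjusted p = 0.929), which did not pass. Of 28 cell type markers tested from 9 lists, 0 were called by limma, and at an unadjusted p under 0.05 there were 5 higher in females (MAG, MOG, OLIG2, CLDN5 and ALDH1L1, markers of oligodendrocytes, their precursors, endothelium and astrocytes) and 1 higher in males (FOLR1, of choroid plexus). Of all autosomal genes, 2.41% were under 0.05 and higher in females and 2.61% under 0.05 and higher in males. Other markers of the same lists went both ways. The female minus male differences of GFAP, AQP4 and SLC4A4 of astrocytes were -0.25, -0.03 and -0.22. That of PECAM1 of endothelium was -0.20 and that of TTR of choroid plexus 0.95. FLT1 of endothelium, MBP and PDGFRA were higher in females. All these markers were named after their values were seen.

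Levels of the partners differed widely. Among the G protein subunits with a row, GNB1 was highest at 224.5 ± 42.0 TPM (SD, n = 6), and GNAQ and GNAI1 were listed at 0 in all 6 libraries. Both are broadly expressed genes, and without counts a listed 0 may be a failed estimate, so it is not read as a low level. Of the Gq effectors, which GRM5 uses, PLCB3, a phospholipase C, was lowest at 10.3 ± 2.196 TPM (SD, n = 6). All 9 effectors had a row, and 0 of 9 were called by limma or had an unadjusted p under 0.05.

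Among the targets of group II and III receptors, 4 of 6 listed adenylyl cyclases had a row, and ADCY1 and ADCY3 had none. Of the 4 with a row, ADCY5 at 70.0 ± 23.0 TPM was the highest and ADCY2 at 1.86 ± 1.46 TPM the lowest (SD, n = 6). The potassium channel subunits KCNJ3 and KCNJ9 were at 66.0 ± 18.6 and 55.0 ± 11.1 TPM, and KCNJ6 had no row. ELFN1, a trans-synaptic partner of group III receptors, was at 10.9 ± 2.30 TPM.

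Among regulators with a row GRK2, a receptor kinase, was highest at 344.9 ± 34.7 TPM. Of the scaffold proteins HOMER2, which binds GRM5, was at 151.5 ± 29.8 TPM and GRIP1 at 9.14 ± 4.05 TPM. SLC17A7, the vesicular glutamate transporter of cortical neurons, was at 1165 ± 275.8 TPM, and SLC17A6, its relative of subcortical neurons, at 6.80 ± 5.11 TPM. In NAAG metabolism SLC17A5, a lysosomal and vesicular transporter, was at 24.7 ± 5.46 TPM and the peptidase NAALAD2 at 5.88 ± 2.09 TPM.

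In the retinal cascade downstream of GRM6, 3 of 6 genes had a row. RGS11, which ends the signal of GRM6, was the highest at 61.5 ± 35.8 TPM, GPR179 was at 1.08 ± 0.275 TPM, and LRIT3 was listed at 0 in 3 libraries and at 0.780 TPM or less in the others. TRPM1, NYX and GNB3 had no row.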

How the data were processed

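Polyadenylated RNA from the prefrontal cortex of 6 animals was sequenced in pairs of reads. The authors mapped reads to genome TS_3.0 with HISAT2 2.2.1 and assembled transcripts per animal with StringTie 2.2.1 (versions from the submitters' processing notes). They merged the assemblies into 1 annotation, on which each animal was then measured. The deposited TPM and FPKM values are relative to the library, and the deposited coverage is the mean read depth over a locus. The tables hold no counts, so the authors' count test was replaced by limma. Strand of the libraries is not given in the sources used here.

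Values were read with Python 3.11.15, pandas 2.3.3, numpy 2.4.6 and scipy 1.17.1. Figures were made in matplotlib 3.10.9. A gene entered the fit when 3 or more libraries had at least 0.1 TPM. The fit used limma 3.58.1 in R 4.3.3 on log2(TPM + 1), with a trend of the variance on the mean and sex as the only term. A fold change on this scale understates the change of low genes. The Benjamini-Hochberg adjustment was made separately for autosomal, X-linked and contig genes, and a gene was called under 0.1. The contig of GRM4 is listed by the study as autosomal. The X segment from 4542400 to 6144400 and chromosome 26 before 3132930 were left out. On simulated data with 200 changed genes the fit recovered 132 of them and made 9 other calls.

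Members and lists were chosen with earlier results of these data known. Named genes are the receptors, the highest and lowest gene of each partner list (some are not reported here), any list gene called, and the 2 list genes most like each receptor. FOLH1, GPR179, the cell type markers, KIAA1324L and the neighbours of GRM2 were named outside this rule, after their values were seen. Animals are numbered separately, so p-values measure the spread between animals. Alternatives were the pseudocount, the filter, the scaling, FPKM, loci with strand only, no trend, 1 adjustment over all genes, loci kept apart, a replicate block and leaving out each library.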

Additional observations from a re-analysis of the deposited data

How the results depend on the processing

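No receptor and no partner gene was called under any of the 17 alternatives to the limma fit. Over these alternatives, single libraries left out included, the female minus male difference was between -0.28 and -0.02 for GRM3, between 0.04 and 0.79 for GRM4 and between -0.56 and -0.02 for GRM5. That of GRM6 was between 0.10 and 1.36 in the 15 alternatives that kept the gene, with the highest value from a pseudocount of 0.1. Animal numbers 1 and 4 occur in both sexes but only name animals, and their deviations from the group means correlated at -0.00475 and 0.0378. With these numbers as a replicate block, the difference of GRM7 was 0.0508 in place of -0.18, that of GRM4 0.04, and no receptor was called. Leaving out each library in turn gave -0.31 to 0.05 for GRM7 and -0.35 to 0.05 for GRM8, with the positive values without male 5 (0.0535) and without female 4 (0.0532). The group III sum difference was -1.46 TPM with stranded loci only, and -4.54 to 7.68 TPM when each library was left out, below 0 without female 1 (-0.0343), without female 3 (-4.26) or without male 4 (-4.54). For GRM5, leaving out each library gave -13.8 to 0.689 TPM, above 0 without male 5, and the GRM3 difference kept its sign, from -11.1 to -1.30 TPM. Read depth in place of TPM was chosen after seeing the data. It turned GRM7 over GRM4 to -2.57 on the log2 scale, and the other 4 neighbouring pairs kept their direction, at 1.80, 2.76, 2.37 and 1.10, each with an adjusted exact permutation p of 0.03125 for pairs taken in the TPM order. For pairs taken in the order by depth, 3 had an adjusted p of 0.0521 and the others 0.195 and 0.5. The causes were not tested. Without read counts, the error of the low values of GRM6 could not be given.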

Other observations

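Besides the genes themselves, 5 loci carried names of long intergenic RNAs after GRM3, GRM4, GRM5, GRM7 and GRM8, and all 5 were listed at 0 in all 6 libraries. A locus named GRM5li1, on chromosome 9, - strand, 46972742 to 47006879, lies inside GRM5 on the opposite strand. Females 1, 3 and 4 had 0, 0.105 and 0.0355 TPM of it, and males 1, 4 and 5 had 0.153, 0.0558 and 0 TPM. Loci without strand took 2.30%, 2.55% and 3.33% of all TPM in females 1, 3 and 4, while their share was 5.16%, 2.67% and 7.88% in males 1, 4 and 5. Males 1 and 5 had the largest shares, and these are the libraries in which GRM6 was listed at 0. Their part in the level of GRM6 was not tested.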
